A study of Rattus norvegicus with 16 samples.

Results

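Small RNA counts were examined on 202 of the 997 repeat names counted in rat germ cells (GCs), the names of long terminal repeat (LTR) elements that are largely old in mammals. The members were chosen by a rule on names, as those beginning with MLT, MST, THE1, LTR and a digit, MamGyp, ERVL or HERV. No measured value is part of the rule, but it was set with earlier results of these data known. No name began with MST or THE1. By name the members fell into 64 MLT1 names, 13 MLT2 and ERVL names, 112 numbered LTR names, 9 MamGyp names and 4 HERV names. The label of ancient mammalian LTRs holds for the names only in part. An ending of RN or Rn marked 6 numbered LTR names as rat entries, and 6 of the names counted as MLT1 began with MLTR. These 12 names held 22.5% of the counts on the members.

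The GCs came from the testes of male Sprague-Dawley GCS-eGFP rats, which carry an eGFP transgene expressed in germ cells, at 19 weeks of age. The rats were fed from weaning on a high fat diet (HFD), with 40% of calories from fat by the sample labels and 45% by the study's methods, or on a control diet (CD) with 10%, and all carried the transgene. Cells were sorted on eGFP alone, so that each library mixes germ cells of every stage that expresses it, and 4 rats per diet gave 1 small RNA library each. The libraries were selected for RNAs of 22 to 30 nt. Fewer cells of one stage and less RNA per cell cannot be told apart in such bulk samples.

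LTRs are the flanking repeats of endogenous retroviruses and of related elements, which spread through the genome by reverse transcription of their own RNA. MLT1 names are LTRs of the MaLR group, relatives of the ERVL retroviruses, MLT2 names are LTRs of ERVL itself, MamGyp names are remains of Gypsy-type elements, and names with "int" are the internal parts that lay between the LTRs. In the testis, piRNAs bind PIWI proteins and guide the silencing of transposons, and during meiosis many piRNAs are made from long single transcripts that are not themselves transposons but hold old repeat fragments.

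The repeat annotation of the rn5 genome placed the 202 names at 138240 places that cover 29616445 bases. A place was 214.2 bases long on average, against 291.9 for all other repeat names, and 0.144% of the bases lay in annotated exons, against 0.134% for the others. Raw counts of uniquely aligned reads on all repeat names summed to between 2363595 and 3269169 per library, and the members held between 205371 and 281516 of these. A count of 3 was therefore at most 0.000127% of the repeat counts of a library. Of the 202 names, 30 had no count in any library, 47 had counts with a mean below 1, and 125 reached the mean count of 1 that was set for testing. The 30 names without a count covered 220.9 kb together, of which HERV16-int, an internal part listed at 242 places, made up 54.4 kb.

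The members held 8.66% of all repeat counts on 2.99% of the annotated repeat bases. Their share of the repeat counts was 8.89%, 8.69%, 8.61% and 8.58% in the HFD libraries (replicates 1 to 4 in order) and 8.79%, 8.53%, 8.62% and 8.68% in the CD libraries (likewise). The diets overlapped, with the highest share in HFD replicate 1 and the lowest in CD replicate 2. The mean share was 8.69% ± 0.139 in HFD libraries and 8.65% ± 0.110 in CD libraries (SD, n = 4 per diet), a difference that did not pass a two-sided exact permutation test over the 70 labellings (p = 0.657, where the smallest possible p is 0.0286). Without the MLTR names and the rat-coded names the shares were 6.73% ± 0.103 and 6.71% ± 0.0932.

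The counts were gathered on few names. LTR68 alone held 13.7% of the counts on the members, the first 5 names held 52.3%, and the first 10 held 70.7% on 21.0% of the members' bases. It took 21 names to reach 90%, while the 150 names with the fewest counts held 0.218% together. LTR68 had the most counts in all 8 libraries, and 8 names were among the first 10 in every library. Across the 202 names, counts and annotated bases had a Spearman correlation of 0.764, and the counts of any 2 libraries had one of 0.917 to 0.950 over 28 pairs of libraries. These correlations describe names that share libraries and an alignment.

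**Figure D1:**
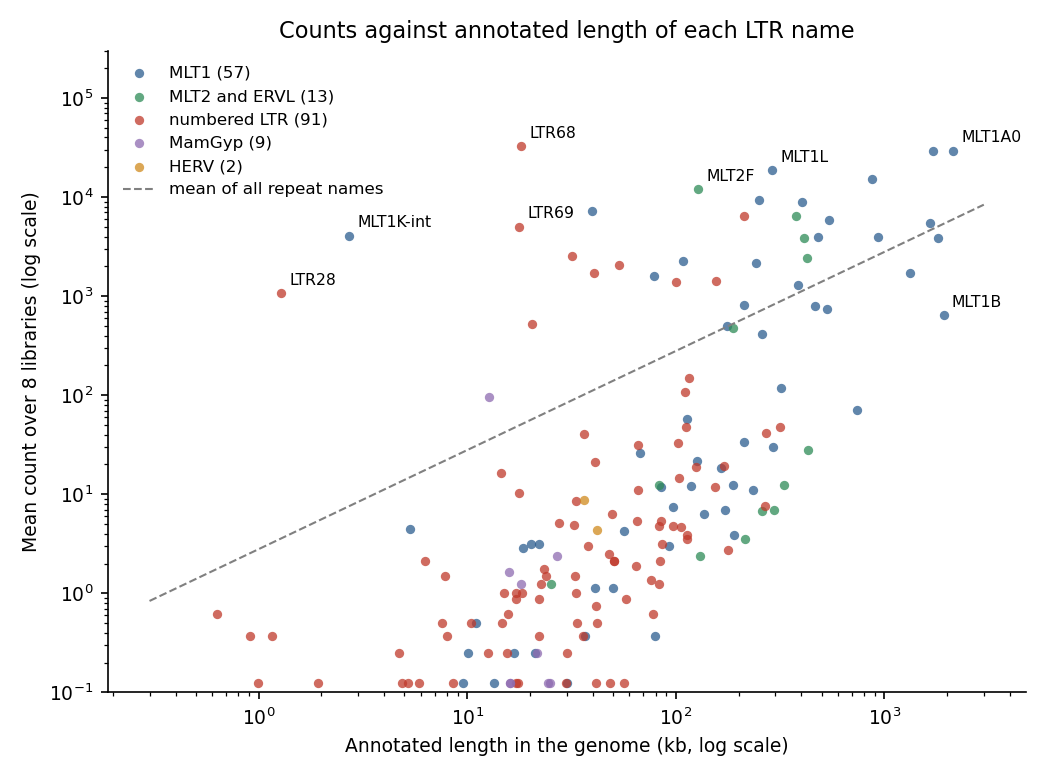
Mean count over the 8 libraries (vertical log axis) against annotated length in kb (horizontal log axis) for the 172 names with counts, coloured by name group, with the number of names in parentheses. The dashed line is the mean density of all repeat names, and LTR68, MLT1K-int and LTR28 lie far above it while most names lie below it.

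To compare names of different length, counts were divided by the annotated length in kb and expressed per 1000000 repeat counts of the library, a scale called RPKM here, with the repeat counts in place of all reads. On this scale all repeat names together had a density of 1.01, and 33 members had a higher one. LTR68, a name with 103 places and 18.2 kb, had a density of 661, 664, 624 and 648 RPKM in the HFD libraries (replicates 1 to 4 in order) and of 698, 656, 627 and 635 in the CD libraries (likewise). The highest value was in CD replicate 1, and the diets overlapped. MLT1K-int, the internal part of an MLT1 element, followed with 508, 552, 564 and 549 in HFD libraries and 526, 556, 560 and 513 in CD libraries, from 12 places and 2.72 kb. LTR28, with 13 places and 1.28 kb, had densities from 276 to 335 over the 8 libraries. LTR69 had densities from 90.4 to 126, and MLT1M from 54.6 to 78.7. These 5 names did not overlap each other in any library, so that the order LTR68, MLT1K-int, LTR28, LTR69, MLT1M held throughout.

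The next names by density were MLT2F, between 32.0 and 36.1 in HFD libraries and between 31.5 and 35.9 in CD libraries, and LTR81A, between 24.5 and 32.7 over all libraries, and their ranges overlapped. MLT1L lay between 21.4 and 24.4, LTR87 between 14.3 and 16.2, and LTR37-int between 12.3 and 14.5. The last 2 of these overlapped each other. Long names of the same subgroup could differ widely in density. MLT1A0, the name with the most annotated length, had 4.98 RPKM as the mean of 8 libraries on 2140 kb, whereas MLT1B had 0.120 on 1923 kb. Among the MLTR names, MLTR14 had 6.23 on 1704 kb and MLTR11A had 0.0346 on 736 kb.

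**Figure D2:**
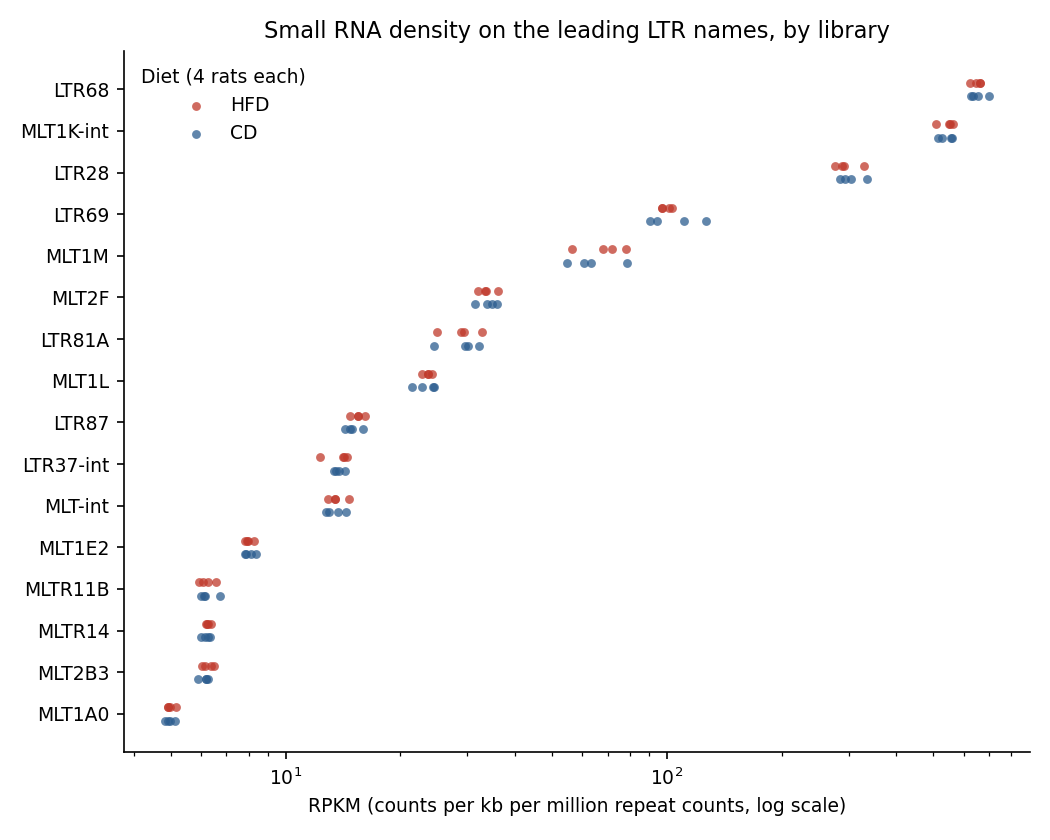
RPKM, as counts per kb and 1000000 repeat counts (horizontal log axis), of the 16 names with the most counts or the highest densities, 1 point per library, with HFD libraries in red and CD libraries in blue. LTR68 lies between 624 and 698 and MLT1A0 between 4.83 and 5.17, and the diets overlap for each of the 16 names.

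By subgroup, the MLT1 names held 66.2% of the members' counts on 69.7% of their bases, the numbered LTR names 23.2% on 18.05%, and the MLT2 and ERVL names 10.5% on 11.2%. In RPKM, the numbered LTR names had 3.77 (3.63 to 3.99 over the libraries), the MLT1 names 2.78 (2.72 to 2.85) and the MLT2 and ERVL names 2.77 (2.62 to 2.87). The ranges of the last 2 overlapped. The MLTR names, counted here as MLT1, held 19.2% of the members' counts on 12.45% of their bases and had 4.53 (4.44 to 4.61). The other MLT1 names held 47.0% on 57.3% and had 2.40 (2.34 to 2.47). The MamGyp names had 0.205, most of it from MamGyp-int, with 77, 72, 136 and 112 counts in HFD libraries and 89, 88, 108 and 79 in CD libraries. The highest of these values was in HFD replicate 3, and the diets overlapped. The HERV names had 0.0352, and HERVL40-int, the one with the most counts, had between 4 and 13 per library. A mean count of at least 1000 was reached by 18 MLT1 names, 4 MLT2 and ERVL names and 9 numbered LTR names, and by no MamGyp or HERV name.

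Shares of the repeat counts did not pass the test between diets in any of the 5 subgroups (two-sided exact permutation test, Benjamini-Hochberg adjusted p of 0.893 to 1). The MLT1 names held 5.77% ± 0.0811 in HFD libraries and 5.71% ± 0.0748 in CD libraries (SD, n = 4 per diet), and the numbered LTR names 2.00% ± 0.0461 and 2.02% ± 0.0801. The MLT2 and ERVL names held 0.914% ± 0.0366 and 0.915% ± 0.0200.

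Summed over names, the members were denser in counts of uniquely aligned small RNA reads than like repeats in every library. Reads with several equal places are missing from all groups, and whether they are missing evenly was not tested. The members had 2.94 ± 0.0470 RPKM in HFD libraries and 2.92 ± 0.0373 in CD libraries (SD, n = 4 per diet). The rodent MaLR names (ORR1 and MT, the younger relatives of MLT1) had 1.84 ± 0.0388 and 1.83 ± 0.0303, the RMER and RLTR names of rodent LTR elements 1.59 ± 0.0105 and 1.58 ± 0.0106, the old LINE names (L2, L3 and L1M) 2.05 ± 0.0121 and 2.05 ± 0.0383, and all other repeat names together 0.949 ± 0.00145 and 0.949 ± 0.00115. The members' density was 1.60-fold that of the rodent MaLR names, 1.85-fold that of the RMER and RLTR names, 1.43-fold that of the old LINE names and 3.09-fold that of all other names. Each ratio was above 1 in 8 of 8 libraries (two-sided exact sign-flip permutation test over libraries, p = 0.0078 for each and after adjustment over the 4, the smallest p it allows). The libraries share an annotation and an alignment, so this p covers repeatability over libraries and not the spread over names or copies.

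The direction was the reverse for the median name. The median density over names was 0.0191 RPKM for the members, 0.457 for the rodent MaLR names, 0.0452 for the RMER and RLTR names, 0.0397 for the old LINE names and 0.0430 for all other names. The members' median was lower by 4.58 on the log2 scale than that of the rodent MaLR names and by 1.24, 1.06 and 1.18 than the other medians, with the same p. The summed density without LTR68, on the log2 scale, was still higher by 0.46, 0.68, 0.30 and 1.41 in the same order. The log2 ratios of summed density did not pass the test between diets (exact permutation test, adjusted p = 0.943 for each of the 4 ratios).

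**Figure D3:**
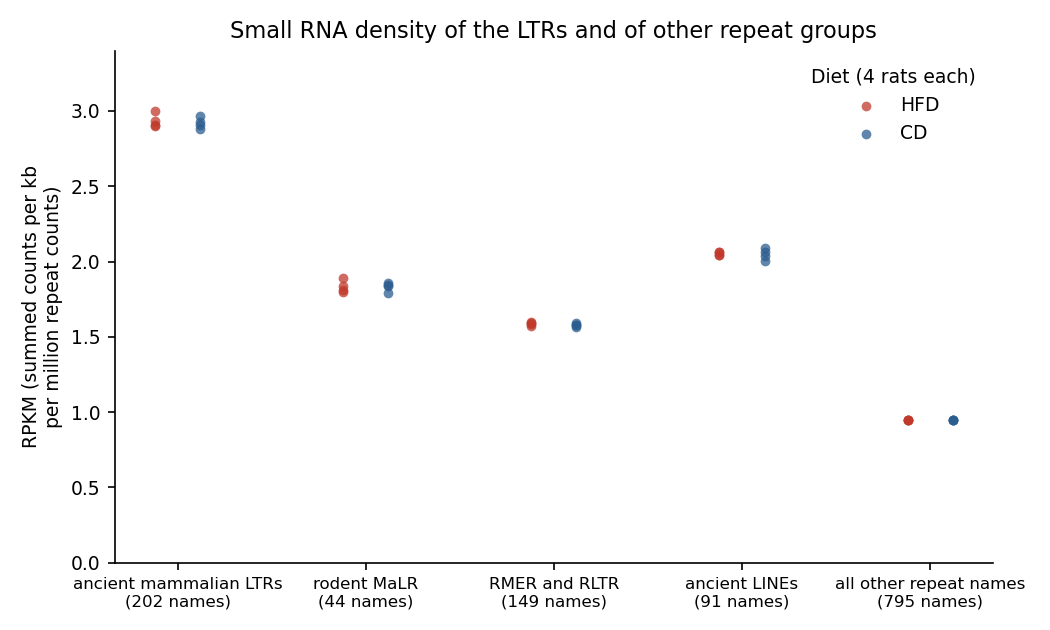
RPKM from summed counts per kb and 1000000 repeat counts (vertical axis, from 0) of the members and 4 other groups of repeat names, 1 point per library, with HFD libraries in red and CD libraries in blue. The members lie between 2.88 and 3.002 and above every other group in all 8 libraries.

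Internal parts and LTRs are listed under separate names, 40 and 162 of them. The internal names together had 3.29 RPKM (3.20 to 3.39 over libraries) and the LTR names 2.90 (2.85 to 2.97). The log2 ratio was 0.18, above 0 in every library (exact sign-flip permutation test, p = 0.0078), and 0.42 without LTR68, a name on the LTR side. Here too the p covers repeatability over libraries only. On the internal side MLT-int alone held 3.91% of the members' counts, at 13.56 RPKM, where all 40 internal names held 8.50%. The ratio without MLT-int was not computed, so the lead of the summed internal names may rest on that name. For the median name the LTR names were the denser, with a log2 ratio of -2.03, and 11 of the 40 internal names had no count at all. In the 28 cases where both an LTR and its own internal part were listed, the internal part was the denser in 3 and the LTR in 25.

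Entries of the piRNAQuest annotation gave a second reading of the same libraries, with genome positions that the counts per repeat name lack. For these entries the authors counted reads on the strand opposite to the entry, and every entry is annotated on the plus strand, so that the counts come from reads of the minus strand. Of 58165 entries, 50830 had a single place in the genome, and 940 of these touched a copy of a member. They lay on 96 of the 138240 copies, from 44 names, and 818 of them had no count from minus-strand reads. The entries on member copies held 1.13% ± 0.0377 of the piRNA counts in HFD libraries and 1.13% ± 0.0449 in CD libraries (SD, n = 4 per diet; two-sided exact permutation test, p = 0.943).

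A handful of copies accounted for most of the counts on these entries, which are a small part of the counts on the leading names. For the 5 names with the most counts, the entries had from 0.0124% (MLTR11B) to 4.89% (LTR68) as many counts as the name. From which copies the other counts came cannot be read from counts per name. Of the entry counts, 4 copies held more than 50%, 10 copies held 77.5%, and 19 copies were needed for 90%. The first was an MLT1G3 copy of 58 bases on chromosome 12 (rn5, chr12:24791737-24791794, plus strand), with 1810, 1595, 2392 and 2118 counts in the HFD libraries (replicates 1 to 4 in order) and 1790, 1791, 1880 and 1673 in the CD libraries (likewise). HFD replicates 3 and 4 were the highest and HFD replicate 2 the lowest, in raw counts that were not adjusted for depth. All of these counts came from 1 entry, rat_piRNA_161770, which lies at bases 24791737 to 24791762. That entry had 87.9% as many counts as all 243.7 kb of MLT1G3 together (86.4% to 89.4% over the libraries).

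The second copy was of LTR68, on chromosome 5 (chr5:78583750-78584186, minus strand, 437 bases), with 1508, 1521, 1928 and 1597 counts in HFD libraries and 1509, 1732, 1589 and 1447 in CD libraries. These were 4.89% as many as the counts on the name LTR68, which hold reads of both strands and of all its copies. The third was of MLT2B3 (chr4:177329139-177329551, minus strand) and had between 1141 and 1711 counts per library. The fourth was of MLT2F (chr12:8621929-8622371, plus strand), with 1035, 1122, 1441 and 1311 counts in HFD libraries and 1522, 1479, 1103 and 1052 in CD libraries. CD replicates 1 and 2 were the highest there, and the diets overlapped. The fifth, of MLT1H1 (chr12:50844867-50844947, minus strand), had between 715 and 1037 counts, all from 1 entry that overlaps the copy by 3 bases and lies otherwise outside it. That entry had 99.7% as many counts as the whole name MLT1H1 with its 1006 places (97.5% to 102.8% over the libraries). The counts of a name can thus come largely from reads at the edge of 1 copy. The annotation placed none of these 5 copies in a gene.

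**Figure D4:**
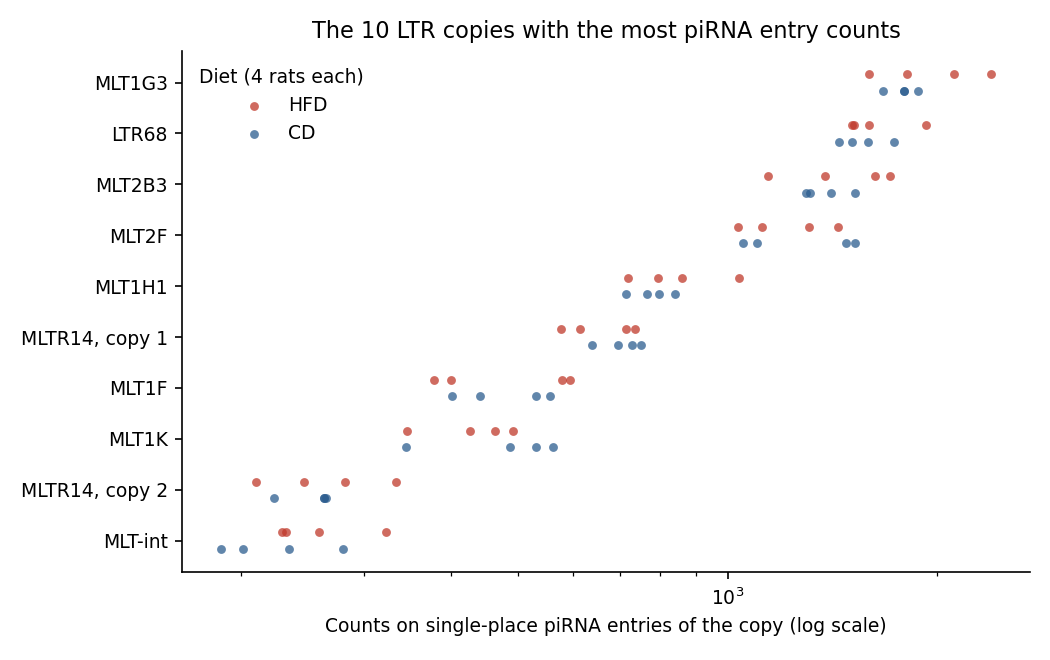
Raw counts on single-place piRNA entries (horizontal log axis) of the 10 member copies with the most such counts, 1 point per library, with HFD libraries in red and CD libraries in blue. The MLT1G3 copy lies between 1595 and 2392 and the MLT-int copy between 187 and 323, and the diets overlap for all 10.

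Entries no more than 20 kb apart were joined into 313 loci, a distance chosen after the data were seen, and 22 of the loci held an entry on a member copy. 5 loci held 69.4% of the counts on such entries. The first covered 14.2 kb of chromosome 12 (chr12:24787723-24801927) with an MLT1G3 and an MLT1L copy, and 34.2% of its counts were on entries that touch these copies. In the next, on chromosome 4 (chr4:177323572-177335525), MLT2B3 and MLT-int copies held 14.7%. In the longest of the 5, 56.1 kb on chromosome 7 (chr7:100124966-100181043), 6 copies of 6 names from MLT1E to MLT1K-int held 3.71% of the counts. The locus of the MLT2F copy (chr12:8604339-8644554) took 2.70% to 2.80% of all piRNA counts in the 8 libraries, while its member copies held 5.25% of its counts.

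Counts on member copies came from reads in the direction of the copy in 53.5% and against it in 46.5%. In single libraries the first share ranged from 50.4% in CD replicate 1 to 55.0% in CD replicate 3. The direction is that of the LTR as annotated and rests on 30 copies of 1 orientation and 20 of the other with tested entries. With entries wholly inside a copy the shares were 49.5% and 50.5%, so that neither orientation led under both definitions. Only minus-strand reads were counted, so no copy was read in both directions. The shares therefore follow the strand on which the copies lie, and cannot compare small RNAs along a copy with those against it.

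The question of the design was whether the diet altered the small RNAs. With edgeR's quasi-likelihood test over all 755 repeat names that reached a mean count of 1, 0 of the 125 tested members had a Benjamini-Hochberg adjusted p under 0.05 (smallest adjusted p = 0.992), against 0.132% of all tested names. At an unadjusted p under 0.05 there were 6 members, or 4.80%, against 3.58% of all names. Of these 3 were higher on the HFD, where the share over all names was 2.12%, and 3 were lower, where it was 1.46%. DESeq2 gave 0 members at an adjusted p under 0.05 and 2 at an unadjusted one. The median log2 fold change, HFD against CD, was 0.011 for the members and 0.0053 for all tested names, with 69 members above 0 and 56 below.

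For the members with many counts the differences were small. Among the 31 names averaging 1000 counts or more, the log2 fold changes lay between -0.07 and 0.16, with a median standard error (SE) of 0.054. LTR68 had 29271, 28583, 37131 and 37483 counts in HFD libraries and 33059, 35854, 32086 and 29059 in CD libraries, with overlapping diets. After scaling for depth its level was 11864 ± 309 in HFD libraries and 11874 ± 742 in CD libraries, in counts per 1000000 repeat counts (CPM; SD, n = 4 per diet). MLT1A0 had 10727 ± 308 and 10568 ± 121 CPM, MLTR14 had 10719 ± 81.8 and 10503 ± 129, and MLT1L had 6860 ± 133 and 6721 ± 484. The log2 fold changes of these 4 names were -0.0013, 0.022, 0.029 and 0.030, with SEs of 0.044, 0.030, 0.026 and 0.048. Those of the other names among the first 10 were between 0.0010 for MLT1E2 and 0.11 for MLT1M. The signs for MLTR11B, MLT2F and MLT1E2 turned negative with other size factors, and that for LTR68 turned positive with the replicate number as a block (log2 fold change 0.00044).

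The 5 names with the smallest p were MLT1D-int, MLT2B5, MLTR13, MLT1E3 and LTR16A1, and none passed after adjustment. MLT1D-int, an internal part, had 2, 1, 4 and 3 counts in HFD libraries and 7, 5, 5 and 7 in CD libraries. Its log2 fold change was -1.26 (SE 0.40). All its HFD counts were below all its CD counts, at a depth of a few reads. MLT1E3 had 14, 12, 16 and 13 counts in HFD libraries and 6, 10, 9 and 9 in CD libraries. Its log2 fold change was 0.66 (SE 0.23). All its HFD counts were above its CD counts. These were the 2 members, 1.60%, whose CPM did not overlap between the diets, against 2.25% of all tested names.

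MLTR13 was the only one of the 5 with many counts, with 1555, 1457, 1995 and 1746 in HFD libraries and 1389, 1463, 1510 and 1547 in CD libraries. Its CPM was 606 ± 35.3 in HFD libraries and 541 ± 42.7 in CD libraries (SD, n = 4 per diet), with overlapping diets and a log2 fold change of 0.16 (SE 0.066). MLT2B5 had a log2 fold change of -0.66 (SE 0.26) at a mean of 12.5 counts, and LTR16A1 one of -0.52 (SE 0.22) at 18.9 counts. Both overlapped between the diets. MLT1G3, at a mean of 2141 counts, also had an edgeR p under 0.05 before adjustment. Its CPM was 803 ± 30.8 in HFD libraries and 744 ± 31.7 in CD libraries, with overlapping diets. Its log2 fold change was 0.11 (SE 0.048).

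**Figure D5:**
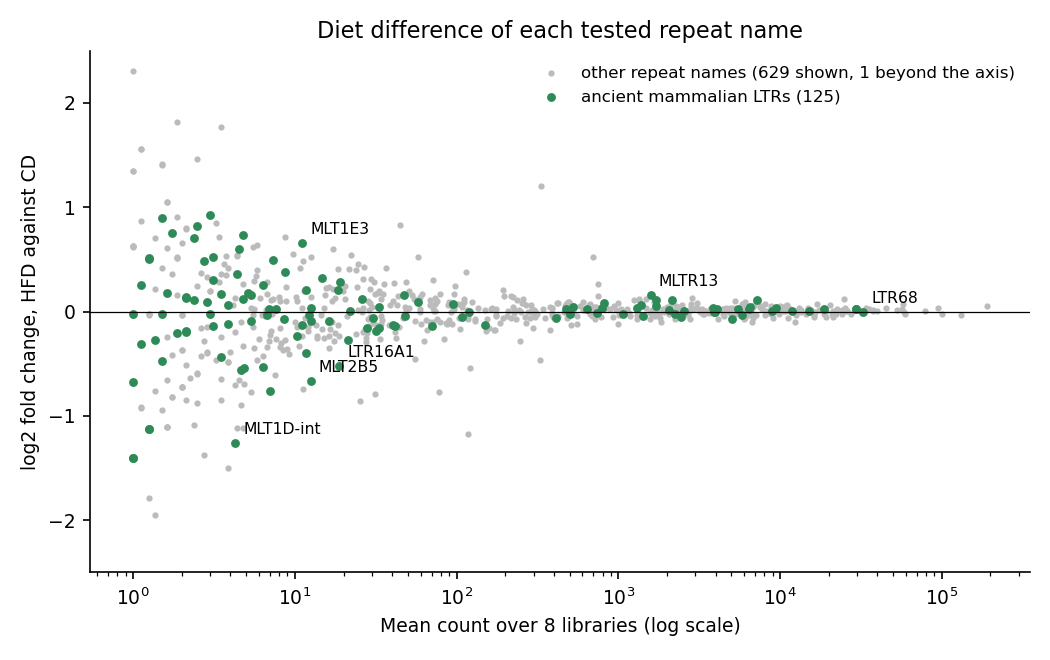
Log2 fold change of each tested repeat name, HFD against CD (vertical axis), against its mean count over 8 libraries (horizontal log axis), with the 125 tested members in green and other names in grey, 1 of which lies beyond the axis. The members spread widely at low counts, and those averaging 1000 counts or more lie between -0.07 and 0.16.

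Libraries differed from each other by more than counting alone gives. Over the 31 names averaging 1000 counts or more, the coefficient of variation of the CPM over the 8 libraries had a median of 4.94%, where counting error alone would give a median of 1.59%. It was smallest for MLTR14, at 1.44%, and largest for MLT1M, at 12.9%. MLT1M had 78.0, 71.7, 68.2 and 56.6 RPKM in HFD libraries and 60.5, 54.6, 63.3 and 78.7 in CD libraries. Each diet held 1 library near 78 and at least 1 below 61. LTR69 followed with 11.99%, and its densities were 103, 102, 97.2 and 97.2 in HFD libraries and 126, 111, 94.1 and 90.4 in CD libraries. The 2 highest and the 2 lowest of these values were all in CD libraries.

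Among the single-place piRNA entries on member copies, 95 reached a mean count of 1 and were tested with all 7818 such entries. With edgeR 0 of them had an adjusted p under 0.05 (smallest adjusted p = 0.996), and the share over all entries was 0.0%. At an unadjusted p under 0.05 there was 1, or 1.05%, against 3.02% of all entries, and DESeq2 gave 0. That entry, rat_piRNA_178719, touches an MLT1L copy with 1 base and had 112, 124, 166 and 142 counts in HFD libraries and 97, 119, 114 and 103 in CD libraries. Its log2 fold change was 0.27 (SE 0.11). Its raw counts overlapped between the diets, while its CPM of piRNA counts, 128 ± 9.98 in HFD libraries and 106 ± 3.16 in CD libraries, did not. The entry with the most counts, rat_piRNA_161770 on MLT1G3, had a log2 fold change of 0.083 (SE 0.082), rat_piRNA_146282 on MLT2F one of -0.16 (SE 0.14), and rat_piRNA_65504 on LTR68 one of 0.049 (SE 0.10). The entries with the next smallest p were rat_piRNA_145986 on MLT1B, at -0.46 (SE 0.22), and rat_piRNA_169946 on MLT1E2, at -0.37 (SE 0.19).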

How the data were processed

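The authors deposited raw counts per repeat name, per piRNA entry, per miRNA and per gene for each library. According to the study's methods and the file headers, reads were trimmed with Trimmomatic to at least 25 nt, aligned to rn5 with Butter, and counted with featureCounts 1.4.6 when uniquely aligned, on either strand for repeats. Reads with several equal places are therefore missing, and counts are summed over all copies of a name. For CD replicate 4 the column name carries another library number, and the sample was taken from the file's record.

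The members and lists were chosen with earlier results of these data known. Counts were tested with edgeR 4.0.16 in R 4.3.3 (TMM, all repeat counts as library size, diet as the only term, mean count of at least 1, Benjamini-Hochberg adjusted p under 0.05). SE is the fold change divided by the root of F. DESeq2 1.42.0, other size factors, filters, a robust fit, a replicate block and leaving out each library were alternatives. Single values were compared by exact permutation over 70 labellings, and densities by 256 sign flips over libraries. Entries and copies were joined with bedtools 2.31.1 at an overlap of at least 1 base. The edgeR fit was tested on simulated counts with a log2 fold change of 1 in either direction. It recovered 69.3% of the changed repeat names and 50.8% of the changed piRNA entries. Of its calls, 2.21% and 7.41% were false. The floor of 3 counts covers counting error only.

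Named members were the 10 with the most counts, the 10 densest among those averaging at least 10 counts, the 5 with the smallest p, the largest rise and fall among those averaging at least 10 counts, and the first of each subgroup and of the internal names. Other names given with values (MLT1B, MLTR11A, MLT1G3, MLT1H1, HERV16-int) were chosen after their values were seen. Tests planned on piRNA pathway genes and cell type markers were not run, since 0 of 26560 gene identifiers matched a symbol. The sorted cell type was therefore not checked in these counts. The study itself reported a purity check of the sorted cells by qPCR of germ cell, Sertoli cell and Leydig cell markers.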

Additional observations from a re-analysis of the deposited data

Results flagged for a closer look

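In 3 of 70 groups of 4 libraries checked, a single library stood apart by Dixon's criterion, which chance meets in about 1 of 20 groups. For MLT1L, HFD replicate 2 had 6663 CPM, and the other HFD libraries had 6909 to 6958. For MLT1E2, CD replicate 2 had 3427 CPM, and the other CD libraries had 3148 to 3182. For the share of the MLT2 and ERVL names in the repeat counts, CD replicate 2 had 0.886%, and the other CD libraries had 0.924% to 0.926%.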

How the results depend on the processing

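Of 634 alternative values over 48 results, 551 kept their direction and 83 reversed, of which 25 did not come from leaving out a library, and none crossed the threshold of its test. The number of members called was 0 in all of them, with 2 to 6 at an unadjusted p under 0.05. No reversed diet difference passed its test, and the cause was not tested.

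With the median over names in place of summed counts, the log2 density ratio against the rodent MaLR, RMER and RLTR, old LINE and all other names was -4.58, -1.24, -1.06 and -1.18, and internal names against LTRs -2.03. The diet difference of these ratios became -0.060 against the rodent MaLR names, -0.097 against the RMER and RLTR names, and 0.34 for internal names. Under DESeq2 with and without shrinkage, RLE factors, library totals and no filter, the log2 fold change was -0.0012, -0.0018, -0.0018, -0.0083 and -0.0023 for MLTR11B, -0.0012, -0.0016, -0.0016, -0.0089 and -0.0025 for MLT2F, and -0.0017, -0.0021, -0.0021, -0.0093 and -0.0027 for MLT1E2. With library totals that of LTR81A was -0.0038.

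With the replicate number as a block, the log2 fold change of LTR68 was 0.00044, 0 members were called, and the exact permutation test of the member share over 4 pairs gave p = 0.50 (smallest possible 0.125). Deviations of same-numbered libraries correlated at 0.165, 0.0732, 0.0528 and -0.00876, against -0.0235 for other numbers, so that the numbers were not taken as pairs.

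Leaving out each library in turn gave diet differences of -0.0247 to 0.0871 percentage points for the member share, -0.0129 to 0.0145 for the MLT2 and ERVL names, -0.0377 to 0.0189 for the numbered LTR names, -4.8e-05 to 0.00035 for the MamGyp names and -0.0109 to 0.0246 for the piRNA share. For log2 density ratios they were -0.016 to 0.023 (rodent MaLR), -0.0089 to 0.0099 (RMER and RLTR), -0.012 to 0.014 (old LINE names), -0.0045 to 0.016 (all other names) and -0.029 to 0.0076 (internal names). Log2 fold changes ranged from -0.038 to 0.037 for LTR68, -0.030 to 0.057 for MLT1L, -0.031 to 0.044 for MLTR11B, -0.033 to 0.035 for MLT2F, -0.0013 to 0.052 for MLT-int, -0.019 to 0.022 for MLT1E2, -0.023 to 0.058 for MLT1K-int, -0.081 to 0.0080 for LTR28, -0.16 to 0.030 for LTR69, -0.060 to 0.077 for LTR81A, -0.018 to 0.060 for LTR37-int, -0.030 to 0.14 for MamGyp-int and -0.010 to 0.12 for rat_piRNA_65504.

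Depth limits the 77 members below a mean count of 1, which were not tested, and those with a few reads per library such as MLT1D-int. Tests on piRNA pathway genes were not run.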

Other observations

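Some names on which CD replicates 1 and 2 were the highest CD libraries were picked out after their values were seen, and the difference was not tested. MLT1F2 had 6466 and 6433 counts in CD replicates 1 and 2 and 5368 and 5088 in CD replicates 3 and 4, and LTR69 had 5803 and 5891 against 4668 and 4015. The entry rat_piRNA_146282 on the MLT2F copy had 1399 and 1312 against 950 and 871. For MLT2F as a whole the 4 CD libraries had 11916, 12053, 12085 and 11159 counts, with no such division. All of these counts are raw and were not adjusted for depth. In RPKM, the CD libraries had 35.91, 31.49, 33.72 and 34.78 for MLT2F (replicates 1 to 4 in order), with replicate 2 the lowest. For MLT1F2 they had 4.575, 3.946, 3.516 and 3.723, with replicates 1 and 2 still the highest.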
